A study of Mus musculus with 12 samples.

Results

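Bcl6, Cxcr5 and Sh2d1a, 3 genes of the follicular T cell programme, were followed in mouse regulatory T cells (Treg) with and without Ikaros, the zinc finger transcription factor made from Ikzf1. The genes were chosen by name out of 36222 in the deposited table, each name matched a single row, and all 3 passed the filter on low values that left 13318 genes for testing. They were selected on results of these same libraries, since their differences between the genotypes were known when they were picked. Those differences are therefore described with their errors and carry no test, while the response of each gene to stimulation was tested. The scale throughout is TPM, transcripts relative to a fixed total per library, a measure of abundance per unit of transcript length.

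Treg were sorted as YFP+ cells from CD4+ spleen cells of individual mice, and RNA was sequenced from 12 libraries. WT mice carried Foxp3-YFP-Cre alone, and cKO mice carried the same Cre together with floxed Ikzf1, so that the Foxp3 locus drives both the Cre that deletes Ikzf1 and the YFP used to sort. Each genotype gave 3 libraries of cells taken ex vivo and 3 of cells stimulated for 4 h with plate-bound antibodies to CD3 and CD28 at 1 µg/ml each. No group was cultured without the antibodies, so the effect of the antibodies and that of 4 h in culture cannot be told apart. Stimulation here stands for both. The labels do not say whether ex vivo and stimulated libraries came from the same animals. The ex vivo cells came from young, age-matched mice per the study.

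BCL6 is a transcriptional repressor that directs helper T cells and Treg toward the follicular fate, in which they enter B cell follicles and act on the germinal centre. CXCR5, the receptor for the chemokine CXCL13, brings these cells into the follicle, and SAP, the small adaptor encoded by Sh2d1a, carries signals from SLAM family receptors that hold T cells in contact with B cells. Follicular Treg are a minor part of splenic Treg. In bulk RNA from sorted Treg, fewer cells of the follicular kind and less RNA per cell cannot be told apart.

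In NCBIM37 (mm9) coordinates from GENCODE vM1, Bcl6 (ENSMUSG00000022508) lies on chromosome 16 from 23965138 to 23988938 on the minus strand, with 10 exons in its longest coding transcript. Cxcr5 (ENSMUSG00000047880) lies on chromosome 9 from 44319871 to 44334504 on the minus strand and has 2 exons. Sh2d1a (ENSMUSG00000005696) lies on chromosome X from 39855630 to 39876874 on the plus strand and has 4 exons. No other annotated gene overlapped any of them, and values summarise reads over the exons of each gene.

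The RefSeq promoter table (GRCm38.p6) held 1 of the 3 genes, Bcl6, at 2 start sites. The 250 bases before each start are shown because Bcl6 had the largest difference of the 3 between genotypes after stimulation, and because Ikaros binds DNA with the core GGGAA. They are read on the minus strand, at chr16:23988853-23989102 for the first site and chr16:23981284-23981533 for the second. Capitals mark GGGAA or, for a match on the opposite strand, TTCCC.
Bcl6 start site 1: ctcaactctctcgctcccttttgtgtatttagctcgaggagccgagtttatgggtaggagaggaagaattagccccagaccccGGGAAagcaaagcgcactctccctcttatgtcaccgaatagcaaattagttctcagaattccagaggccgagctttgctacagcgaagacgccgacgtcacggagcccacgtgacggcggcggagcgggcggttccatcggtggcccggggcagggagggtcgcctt
Bcl6 start site 2: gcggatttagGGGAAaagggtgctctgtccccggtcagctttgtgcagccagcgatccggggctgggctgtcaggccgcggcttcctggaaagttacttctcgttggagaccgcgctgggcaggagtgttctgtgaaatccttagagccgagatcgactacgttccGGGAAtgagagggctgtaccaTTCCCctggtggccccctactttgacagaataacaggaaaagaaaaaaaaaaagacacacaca
GGGAA, searched on both strands, was found once before the first site, 167 to 163 bases upstream of the start. Before the second site it was found at 240 to 236, 84 to 80 and, as TTCCC, 63 to 59 bases upstream. Of 32851 promoter windows of the same 250 bases, 56.2% held such a match. TTCNNNGAA, the palindrome that STAT factors bind, was found once before the first site (118 to 110 bases upstream) and at 168 to 160, 122 to 114 and 88 to 80 before the second, where the last overlaps a GGGAA. That palindrome occurred in 7.02% of the windows. These are matches of letters and not measured binding sites.

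The libraries held between 8208659 and 20247649 reads on genes, and the members were read 607 to 3774 times (Bcl6), 92 to 1320 times (Cxcr5) and 268 to 885 times (Sh2d1a). Ikzf1, the targeted gene, stood at 125, 83.8 and 106 TPM in WT against 44.3, 38.8 and 42.6 TPM in cKO ex vivo, and at 74.7, 66.4 and 83.4 against 31.6, 26.9 and 17.04 TPM after stimulation, which follows the labels. A single gene model, Gm10800, took 17.7% to 55.9% of all TPM, with group means ex vivo of 26.0% (WT) and 22.9% (cKO), and after stimulation of 38.1% (WT) and 48.8% (cKO). Its share lowers the deposited TPM of every other gene in the same library, so comparisons were fitted on TPM scaled between libraries. In one WT ex vivo library, replicate 3, Xist, an RNA of female cells, reached 179 TPM, against at most 1.36 TPM in each of the others.

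Treg markers were present in every library. Foxp3, the factor that defines the lineage, averaged 161 TPM (WT) and 171 TPM (cKO) ex vivo, against 117 (WT) and 192 (cKO) after stimulation, and the 5 Treg markers summed to 596 to 1536 TPM. In deposited TPM, not scaled between libraries, the 10 B cell markers summed ex vivo to 22.5 to 26.9 TPM (WT) and 32.0 to 46.2 TPM (cKO). After stimulation they summed to 24.9 to 32.3 (WT) and 28.9 to 39.5 TPM (cKO), and none was at 0 in any library. Group means were 1.40 to 2.44 TPM for Cd79a and 1.07 to 2.58 for Ms4a1. Of the 10 markers 2 passed the filter, Cd79b and Cd22. Cd79b averaged 5.94 TPM (WT) and 11.9 TPM (cKO) ex vivo, against 4.08 (WT) and 6.99 (cKO) after stimulation, and was called higher in cKO after stimulation (log2 difference 0.96, limma adjusted p = 0.0283) but not ex vivo (0.70, limma adjusted p = 0.112). Cd22 averaged 4.11 TPM (WT) and 7.72 TPM (cKO) ex vivo and was not called there (0.56, limma adjusted p = 0.101). For comparison, 1555 olfactory and vomeronasal receptor genes, silent in T cells, had medians of 0.566 to 1.17 TPM per library.

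**Figure D1:**
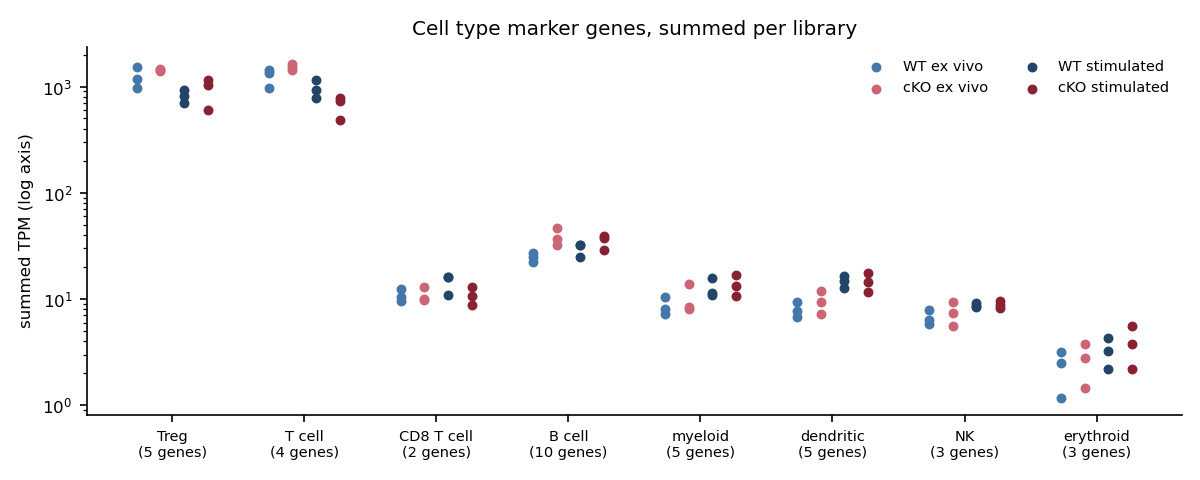
Summed TPM as deposited of marker genes per library on a log axis, with a point for each of the 3 libraries of a group and a column for each cell type list. Treg and T cell markers lie at 485 TPM or more in each library, while the B cell markers lie between 22.5 and 46.2 TPM and are higher in cKO ex vivo than in WT ex vivo.

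Bcl6, which encodes the repressor at the head of the programme, was low in resting Treg and highest in stimulated WT Treg. It measured 20.7, 12.8 and 16.6 TPM in WT ex vivo and 26.0, 21.7 and 23.2 TPM in cKO ex vivo. After stimulation it measured 47.3, 56.5 and 56.6 TPM in WT and 15.5, 21.7 and 12.7 TPM in cKO. All WT stimulated libraries thus lay above every other library, and the stimulated cKO libraries overlapped those of resting WT cells. The group means were 53.5 ± 5.31 TPM in WT stimulated, 23.6 ± 2.18 in cKO ex vivo, 16.7 ± 3.94 in WT ex vivo and 16.6 ± 4.64 in cKO stimulated (SD, n = 3). In that order the last pair overlapped, and after scaling each of the lower 3 groups overlapped its neighbour.

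Cxcr5, which encodes the follicle homing receptor, was lower after stimulation in both genotypes. It measured 27.6, 24.9 and 26.8 TPM in WT ex vivo and 34.9, 35.8 and 43.8 TPM in cKO ex vivo. After stimulation it measured 11.1, 9.51 and 11.4 TPM in WT and 5.16, 7.10 and 5.14 TPM in cKO. The deposited levels formed 4 separate groups, from cKO ex vivo (38.1 ± 4.90 TPM) through WT ex vivo (26.4 ± 1.34) and WT stimulated (10.7 ± 1.03) to cKO stimulated (5.80 ± 1.13). On scaled TPM both ex vivo groups overlapped and the other neighbours did not.

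Sh2d1a, which encodes SAP, rose with stimulation in WT Treg and varied most in stimulated cKO Treg. It measured 14.1, 15.7 and 17.3 TPM in WT ex vivo and 20.2, 20.4 and 24.1 TPM in cKO ex vivo. After stimulation it measured 35.5, 32.5 and 36.3 TPM in WT and 28.2, 27.4 and 13.7 TPM in cKO. The lowest of these, in cKO stimulated replicate 3, came from the library with the highest Gm10800 share (55.9%) and the fewest reads (8208659), and scaling raised it to 18.8 TPM. Group means ran from 34.8 ± 2.02 TPM in WT stimulated through 23.1 ± 8.14 in cKO stimulated and 21.6 ± 2.15 in cKO ex vivo to 15.7 ± 1.61 in WT ex vivo. The middle pair overlapped on the deposited scale, and on scaled TPM each group overlapped the next in order.

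**Figure D2:**
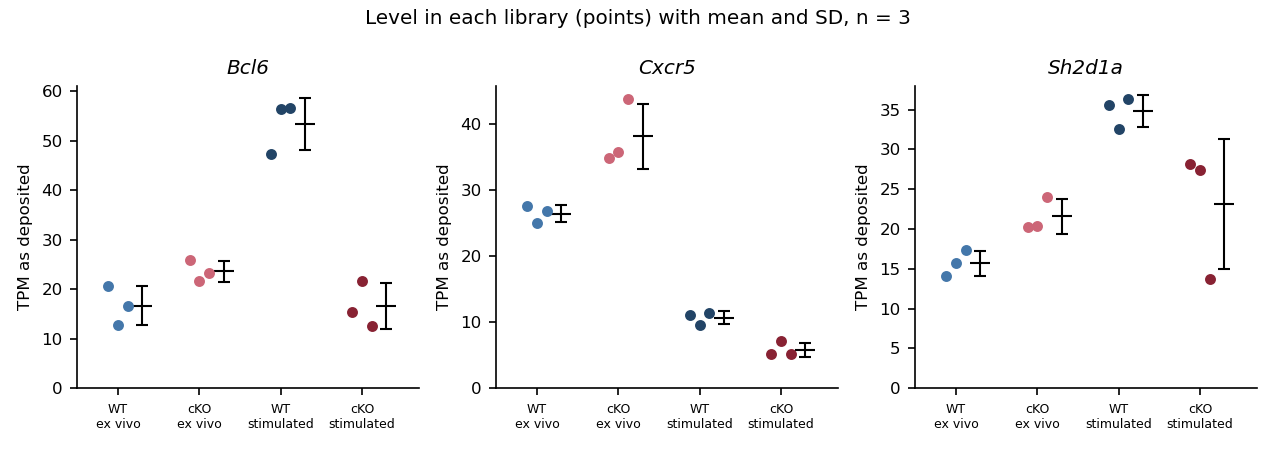
TPM as deposited (linear axis from 0) of Bcl6, Cxcr5 and Sh2d1a in each library, with points for the 3 libraries of a group and a bar for the mean and SD. Bcl6 stands at 47.3 to 56.6 TPM in WT stimulated and at or below 26.0 TPM elsewhere, Cxcr5 is lower in both stimulated groups, and 1 cKO stimulated library is low for Sh2d1a.

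The first question was how these genes differed between ex vivo Treg that have Ikaros and such Treg after 4 h of culture with antibodies to CD3 and CD28. The test was limma on log2(scaled TPM + 1), with Benjamini-Hochberg adjustment over all 13318 genes and a call at an adjusted p under 0.05. It shares the WT stimulated and WT ex vivo libraries with the genotype comparisons known at the choice of the genes. Bcl6 rose by 1.45 ± 0.18 (log2, SE; limma adjusted p = 0.000175), Sh2d1a rose by 0.91 ± 0.19 (limma adjusted p = 0.00348) and Cxcr5 fell by 1.42 ± 0.15 (limma adjusted p = 5.58e-05). In this comparison 12.7% of all genes were called higher and 19.3% lower. In deposited TPM Bcl6 and Sh2d1a lay higher after stimulation with no overlap between libraries, as did 23.2% of all genes, and Cxcr5 lay lower with no overlap, as did 9.9%. The calls of Bcl6 and Cxcr5 held under all 19 alternative settings and left-out libraries. That of Sh2d1a held in 17 of 19, with limma adjusted p from 0.000336 to 0.225, and was lost when genes under 5 TPM entered the fit.

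In Treg without Ikaros 1 of the 3 genes was called with the same stimulation. This test likewise shares its cKO libraries with the genotype comparisons known at the choice of the genes, low Bcl6 in stimulated cKO among them, so the values are not independent of that choice. Cxcr5 fell by 2.23 ± 0.15 (limma adjusted p = 2.73e-06), and its libraries did not overlap, as for 43.9% of genes in the downward direction. Of all genes, 17.3% were called higher and 26.5% lower. Bcl6 differed by -0.20 ± 0.18 (limma adjusted p = 0.401), with a 95% interval of the difference from -0.60 to 0.21. Sh2d1a differed by 0.35 ± 0.19 (limma adjusted p = 0.147), with an interval from -0.06 to 0.76. The Sh2d1a value turned on single choices. It was called without cKO stimulated replicate 3 (0.59, limma adjusted p = 0.0198) and under TPM rescaled without Gm10800 (0.61, limma adjusted p = 0.0213), but turned to -0.19 when genes of 1 TPM or more entered the fit. Its limma adjusted p ranged from 0.0198 to 0.922 over the 19 alternatives.

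The second question was what the loss of Ikaros does to these genes after stimulation, and here the values chose the genes and are a description. On scaled TPM Bcl6 differed by -1.38 ± 0.18 (cKO minus WT; log2, SE), a fold of 0.385. Cxcr5 differed by -0.53 ± 0.15, a fold of 0.692, and Sh2d1a by -0.35 ± 0.19, a fold of 0.782. On TPM as deposited, without scaling, the ratios of mean TPM were 0.311 for Bcl6, 0.542 for Cxcr5 and 0.665 for Sh2d1a. There all 3 were lower in cKO with no overlap, as were 27.1% of the genes tested, from which nothing is read. After scaling Sh2d1a overlapped, with 30.02 to 34.8 in WT and 18.8 to 30.7 in cKO. Without cKO stimulated replicate 3 the Sh2d1a difference was -0.13. Gm10800 took more of the TPM in cKO (48.8%) than in WT (38.1%). Its part in these differences was not tested. With TPM rescaled without Gm10800 Bcl6 differed by -1.41, Cxcr5 by -0.57 and Sh2d1a by -0.37.

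Ex vivo, the differences between genotypes ran the other way. Bcl6 differed by 0.27 ± 0.18 (log2, SE), Cxcr5 by 0.27 ± 0.15 and Sh2d1a by 0.21 ± 0.19, each higher in cKO. With TPM rescaled without Gm10800 these became 0.43 ± 0.17, 0.44 ± 0.14 and 0.37 ± 0.18. In deposited TPM the groups did not overlap, with ratios of mean TPM of 1.41, 1.44 and 1.38, as was the case in this direction for 21.4% of genes, and after scaling all 3 overlapped. The B cell marker sum in deposited TPM was also higher in cKO ex vivo (32.0 to 46.2 against 22.5 to 26.9 TPM), and B cells make CXCR5 and BCL6. Divided by the scale factors of the libraries, these sums overlapped between the genotypes ex vivo but not after stimulation. The part of B cells in these differences was not tested. With a library left out, the difference ranged from 0.16 (without cKO ex vivo replicate 1) to 0.37 for Bcl6 and from 0.17 (without cKO ex vivo replicate 3) to 0.36 for Cxcr5. For X-linked Sh2d1a it ranged from 0.033 (without WT ex vivo replicate 1) to 0.32 (without WT ex vivo replicate 2), with 0.13 without cKO ex vivo replicate 3 and 0.28 without the WT library high in Xist.

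The genotype difference after stimulation minus that ex vivo was -1.65 ± 0.26 for Bcl6, -0.81 ± 0.21 for Cxcr5 and -0.56 ± 0.26 for Sh2d1a (log2, SE), again with no test. All alternative settings gave a negative value, from -2.15 to -1.49 for Bcl6, -1.30 to -0.63 for Cxcr5 and -1.07 to -0.33 for Sh2d1a.

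**Figure D3:**
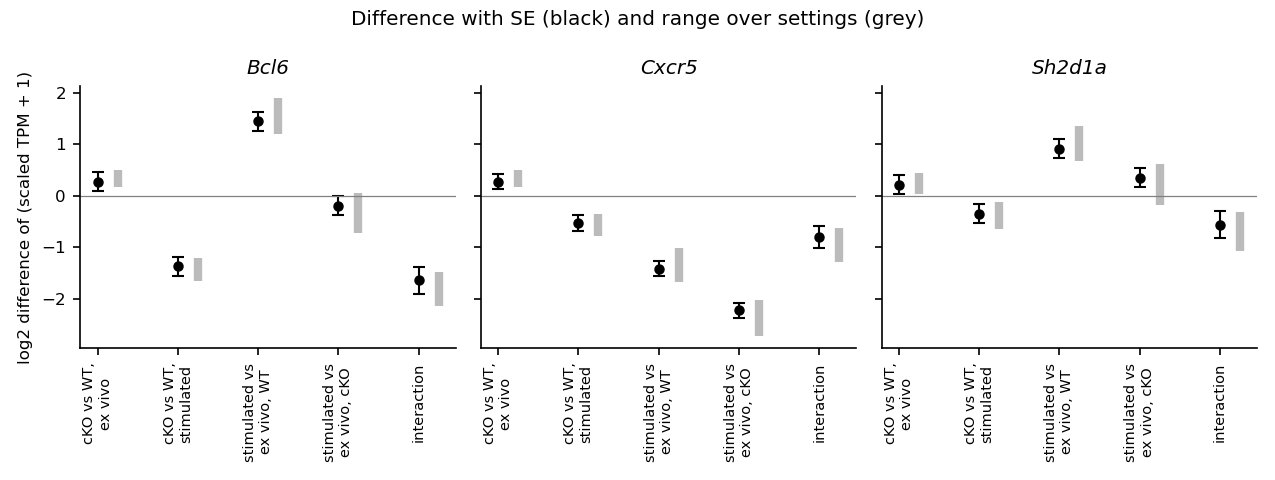
Difference on the log2(scaled TPM + 1) scale for each gene in 5 comparisons, with the fitted value and its SE in black and the range over the fit and its 19 alternatives in grey. Bcl6 spans 1.20 to 1.90 for stimulation in WT and -0.73 to 0.057 in cKO, while Cxcr5 lies below 0 for stimulation in both genotypes.

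Over the 12 libraries Pearson's r was 0.71 between Bcl6 and Sh2d1a, -0.29 between Bcl6 and Cxcr5 and -0.64 between Cxcr5 and Sh2d1a. For deviations from the group means r was 0.24, 0.50 and 0.39 in the same order. These libraries share groups and scaling, so the values describe the pattern only. The genes most like Bcl6 were Gpcpd1 (r = 0.95), Srebf1 (0.95), Cnot6 (0.94), Smap2 (0.94) and Kif2a (0.94), taken over all genes tested. Gpcpd1 stood at 27.8 ± 2.32 TPM in WT stimulated and at 15.9 ± 2.84 in cKO stimulated. Most like Cxcr5 were Ipcef1 (0.99), Tbl1xr1, Mir5105, Laptm5 and Hnrnpc (each 0.98). Most like Sh2d1a were Jagn1 (0.94), Rnf111 (0.93), Fads1 (0.93), Sec23a (0.92) and Fam45a (0.92). Ranked by deviations from the group means in place of the values, 0 of these 5 genes returned for any of the 3.

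BCL6 and BLIMP1, the repressor encoded by Prdm1, oppose each other in T cells, and their genes can be compared within a library, where scaling cancels. The Bcl6 to Prdm1 ratio of TPM was 3.33 ± 0.85 ex vivo and 9.65 ± 2.50 after stimulation in WT, and 2.21 ± 0.57 ex vivo and 2.29 ± 0.58 after stimulation in cKO (SD, n = 3). The WT stimulated libraries, at 7.30 to 12.3, lay above all others, and those of cKO ranged from 1.78 to 2.95 over both conditions. Prdm1 itself was called higher in cKO ex vivo (by 0.76, limma adjusted p = 0.00765) and after stimulation (by 0.56, limma adjusted p = 0.0275). The Cxcr5 to Ccr7 ratio sets the receptor of the follicle against that of the T cell zone. It was 0.0636 ± 0.0217 in cKO ex vivo, 0.0345 ± 0.00913 in WT ex vivo, 0.0216 ± 0.00393 in cKO stimulated and 0.0185 ± 0.00356 in WT stimulated. The genotypes overlapped in each condition, and both ex vivo groups lay above both stimulated groups. Both ratios were formed after the levels had been seen and contain genes chosen on them, so they carry no test.

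**Figure D4:**
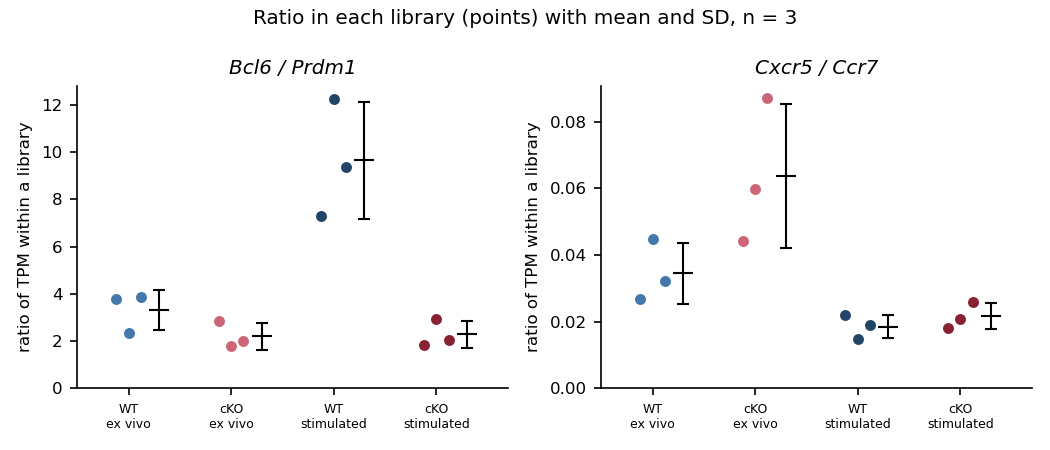
Ratio of TPM within each library (linear axes from 0) for Bcl6 to Prdm1 and Cxcr5 to Ccr7, with points for the 3 libraries of a group and a bar for the mean and SD. The Bcl6 to Prdm1 ratio lies at 7.30 to 12.3 in WT stimulated and at 3.85 or less elsewhere, while the Cxcr5 to Ccr7 ratio lies at 0.0268 to 0.087 ex vivo and at 0.0148 to 0.0259 after stimulation.

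Other genes of the pathway were read in 7 lists, and 144 calls of their genes, of Foxp3 and of Ikzf1 were followed over the settings. Of these 139 held with median of ratios scaling, 89 with TPM as deposited and 65 when genes of 1 TPM or more entered the fit.

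Among factors linked to the follicular programme beside Bcl6, 12 of 13 were tested. After stimulation 3 were called higher in cKO and 4 lower, with 3.3% of all genes called higher and 3.63% lower. The lower ones were Tcf7 (by -1.30, limma adjusted p = 0.000255) and Lef1 (-1.12, 8.5e-05), which encode TCF1 and LEF1, the factors that switch on Bcl6 early in follicular T cells, together with Pou2af1 and Id3. Tcf7 measured 328, 324 and 385 TPM in WT against 116, 134 and 95.3 TPM in cKO. The higher ones were Ezh2, a Polycomb methyltransferase (1.14, limma adjusted p = 0.00153), Maf (0.69, 0.0121) and Irf4 (0.51, 0.0474), the last pair being factors of effector Treg as well. The calls of Irf4 and Id3 held in 2 of 12 fits with a library left out, and that of Maf in 11. The list's median difference was -0.00, beside -0.03 over all genes tested. Ex vivo 3 of the 12 were called higher, Irf4 (1.12), Nfatc1 (0.61) and Maf (0.53, called in 4 of 12 such fits), and Lef1 lower, beside 3.62% and 1.67% of all genes. Stimulation in WT raised 4, among them Irf4 (1.56), Stat3 (0.83) and Pou2af1 (0.64), and lowered 5, beside 12.7% of all genes called higher and 19.3% lower. Of these Id3 fell by 0.95, while Maf, Batf, Tcf7 and Lef1, at -0.42 to -0.41, came to 0.0084 to 0.036 with TPM rescaled without Gm10800.

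Of 9 factors that oppose the programme, Tbx21, which encodes the T helper 1 factor T-bet, was called higher in cKO both ex vivo (1.04, limma adjusted p = 0.000933) and after stimulation (1.73, limma adjusted p = 5.51e-05). It measured 29.4, 21.1 and 15.0 TPM in cKO stimulated against 7.71, 5.40 and 8.22 TPM in WT stimulated, without overlap. Klf2, a factor of quiescence and recirculation that restrains follicular entry, was called lower in cKO ex vivo (-1.44, limma adjusted p = 0.000483) and fell with stimulation in both genotypes (-3.60 in WT and -2.69 in cKO). Counting Prdm1 and Runx3, 3 of the 9 were higher and 1 lower ex vivo, where 3.62% of all genes were called higher and 1.67% lower. The ex vivo call of Runx3 (0.48, limma adjusted p = 0.0312) held in 6 of 12 fits with a library left out and in 3 of 7 other settings. After stimulation 2 were higher and 1, Foxp1, lower, where the shares of all genes were 3.3% and 3.63%. With a library left out, Prdm1 after stimulation was called in 7 of 12 fits and Foxp1 in 8, and over the 7 other settings in 2 and 3. The medians of the list were 0.23 in both comparisons.

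Among 7 receptors that position T cells beside Cxcr5, stimulation in WT lowered 5 and raised 1, beside 19.3% of all genes called lower and 12.7% higher. S1pr1, which draws lymphocytes out of the tissue, fell by 1.37, and Gpr183, which guides cells to the outer follicle, fell by 1.37. S1pr2, which keeps follicular cells in the germinal centre, rose by 0.52. The median of these receptors was -0.62. Between genotypes after stimulation, S1pr1 was lower in cKO (-1.26, limma adjusted p = 0.00202). Ccr7 differed by -0.83 (limma adjusted p = 0.0554), beside -0.53 for Cxcr5. Ex vivo, S1pr2 was higher in cKO by 0.62 (limma adjusted p = 0.00329).

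SAP acts through SLAM receptors, and 11 of 13 genes of that pathway were tested. Stimulation in WT raised Slamf1 (0.70, limma adjusted p = 0.000825), a SAP-binding receptor, and lowered 6, where 19.3% of all genes were called lower, namely Cd84, Ly9 and Slamf6, further SLAM receptors, Cd48, a ligand, Ptpn6, the phosphatase SHP-1, and Prkcq, protein kinase C theta. Slamf6, whose signals SAP carries between T and B cells, fell by 0.47. The calls of Slamf6 and Cd84 held in 3 of 7 other settings, and with TPM rescaled without Gm10800 they came to -0.030 and -0.028. In cKO 9 fell, where 26.5% of all genes were called lower, and Slamf1 rose by 0.38, which turned to -0.17 when genes of 1 TPM or more entered the fit. Of the 9, Cd84, Slamf6, Ptpn11 and Inpp5d lost their calls with TPM rescaled without Gm10800 (limma adjusted p = 0.115, 0.311, 0.195 and 0.071). After stimulation the 3 called were each lower in cKO than in WT, Ptpn6 (-0.67, limma adjusted p = 0.00204), Cd48 (-0.45) and Ly9 (-0.40), beside 3.63% of all genes called lower and 3.3% higher. Cd48 was called in 7 and Ly9 in 2 of the 12 fits with a library left out. The list's median there was -0.26. Ex vivo only Ptpn11, the phosphatase SHP-2, was called, higher by 0.60, as were 3.62% of all genes.

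Of 18 surface and secreted molecules of follicular T cells, 15 were tested, and Il21, Il4 and Il1rn stayed under 5 TPM in every group. After stimulation Icos, the costimulator whose signals support follicular T cells, was higher in cKO (0.90, limma adjusted p = 0.00212), as was Cd200. Il1r2, a decoy receptor for interleukin 1 found on follicular Treg, was lower (-0.88, limma adjusted p = 0.00399), as were Il6ra, Il6st and Il21r, receptor chains for cytokines that induce BCL6. Of these Il6ra was called in 11, Il21r in 7 and Il6st in 6 of the 12 fits with a library left out, and Cd200 in 7. Pdcd1, which encodes PD-1, rose with stimulation from 23.9 ± 3.84 to 254 ± 19.2 TPM in WT and from 41.6 ± 3.26 to 189 ± 47.0 TPM in cKO (SD, n = 3). Ex vivo 3 of the list were called, Pdcd1, Tnfrsf4 and Il10, each higher in cKO, as were 3.62% of all genes. Those calls held in 8, 6 and 6 of the 12 fits with a library left out, and each in 3 of 7 other settings. After stimulation 2 were higher and 4 lower, against 3.3% and 3.63% of all genes. The medians were 0.21 ex vivo and 0.17 after stimulation.

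All 10 corepressors that BCL6 recruits were tested. In either genotype comparison 0 of them were called (limma, unadjusted p under 0.05 for 1 ex vivo and 3 after stimulation), and their differences had medians of 0.08 and -0.15. In WT, where 12.7% of all genes were called higher and 19.3% lower, stimulation raised Nacc1 and lowered Hdac7, the latter from 56.4 ± 11.9 to 34.1 ± 4.53 TPM. In cKO it lowered 6, where 26.5% of all genes were called lower, among them Bcor and Ncor1, though Mta3, also among them, turned to 0.040 with TPM rescaled without Gm10800.

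Of 12 genes that BCL6 is known to repress, all were tested. After stimulation Prdm1 and Ccnd2 were called higher (0.56 and 0.67) and S1pr1 and Il7r lower (-1.26 and -0.53), beside 3.3% of all genes called higher and 3.63% lower, and 8 were not called. Prdm1 and Il7r were each called in 7 and Ccnd2 in 8 of the 12 fits with a library left out. The median of the list was 0.05. Ex vivo Cdkn1a and Prdm1 were higher and Klf2 lower, beside 3.62% and 1.67% of all genes. With stimulation in WT 7 fell, led by Klf2, and Myc rose, where 19.3% of all genes were called lower. In cKO 8 fell and Myc rose, where 26.5% of all genes were called lower. The calls of Selplg and Cdkn1b in WT held in 3 of 7 other settings. The medians were -0.65 and -0.53. Selplg fell in WT alone by the test and Cdkn1a and Il7r in cKO alone, but the interaction test called 0 of the 12 (limma, 7 at an unadjusted p under 0.05).

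Of the genes in these lists, 3 had a response to stimulation that differed between genotypes in the interaction test, where 0.451% of all genes were called higher and 0.653% lower. Tcf7 (-1.30 ± 0.18, limma adjusted p = 0.0122), Pou2af1 (-0.92 ± 0.17, limma adjusted p = 0.0295) and S1pr2 (-0.72 ± 0.13, limma adjusted p = 0.023) had a more negative response in cKO. The calls of Pou2af1 and S1pr2 held in 3 and 6 of the 12 fits with a library left out. Pou2af1, which encodes a coactivator that acts in B cells and follicular T cells, measured 15.6, 11.9 and 15.7 TPM in WT stimulated and 6.39, 6.15 and 5.07 TPM in cKO stimulated, and S1pr2 10.4, 9.08 and 12.2 against 10.1, 6.98 and 7.01 TPM. The B cell marker sum in deposited TPM stood at 24.9 to 32.3 TPM in the former libraries and 28.9 to 39.5 TPM in the latter. Divided by the scale factors, the sums were higher in the latter without overlap, and their part in these differences was not tested.

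**Figure D5:**
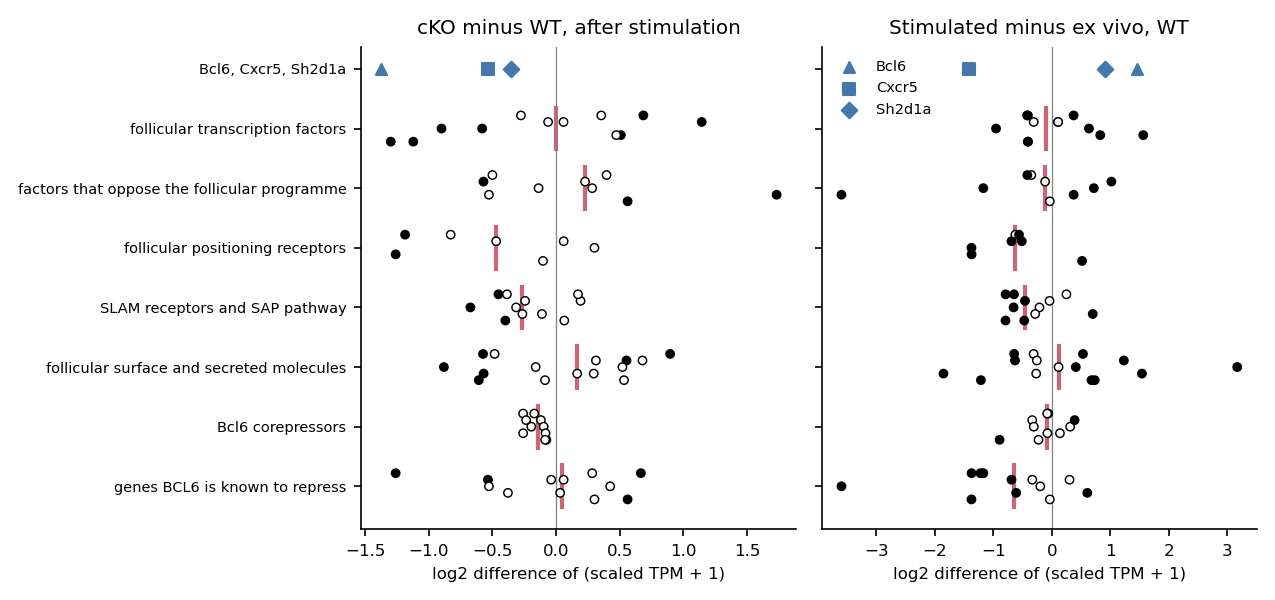
Log2 differences of the tested genes of 7 lists, filled where called by limma and open where not, with the median of each list as a red bar, and the 3 genes themselves in blue in the top row (no call shown). For cKO minus WT after stimulation Bcl6 lies at -1.38, a value known when it was chosen, so nothing is read from its place beside the lists. For stimulation in WT Cxcr5, at -1.42, lies on the side of most positioning receptors while Bcl6 and Sh2d1a lie on the other.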

How the data were processed

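RNA was sequenced from Treg of 12 mouse samples, and every sample had a group in the labels. Per the labels and the study's methods, the authors depleted ribosomal RNA, made strand-specific libraries, read paired ends of 51 bp, aligned them with STAR 2.6.0c to mm9 and counted reads per gene with HTSeq 0.6.1, with the annotation of Ensembl 67. The deposited table holds a TPM signal per gene and library, each library summing to 1000000, and the same signal as log2 after the authors added the value of 1 read. The reads behind a TPM follow from the 2 columns and were whole, to within 0.01, for 99.9977% of values. They give the depth only. A table of the authors' own comparisons (log2 fold changes, logCPM, F, p-values and FDR) was not used.

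The 13318 genes reaching a mean of 5 TPM in some group were kept, libraries were brought to one scale with TMM factors (30% of M and 5% of A trimmed), and limma 3.58.1 (lmFit, contrasts.fit, eBayes with trend) in R 4.3.3 was fitted to log2(scaled TPM + 1) of all 12 libraries with the 4 groups. Fold changes on this scale are understated for low genes. The two-sided tests were adjusted by the Benjamini-Hochberg method over all genes kept, with calls at 0.05. The members, the lists and this filter were chosen with earlier results of these data known. Genes named from the lists were those called with the smallest adjusted p, up to 4 per list and comparison, and others where a count turned on them. Some genes of the lists are counted but not reported by name here. The 5 genes most like each member were taken by Pearson's r over the 12 libraries. Alternatives were a filter of 1 TPM, no filter, a pseudocount of 0.5, unscaled TPM, median of ratios scaling, TPM rescaled without Gm10800, a replicate block, and each library left out. Replicates were separate animals within a group per the labels. Sequences and motif searches used RefSeq promoters of GRCm38.p6. The procedure was tested on simulated data.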

Additional observations from a re-analysis of the deposited data

Results flagged for a closer look

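Of the genes in the lists, 3 responded to stimulation differently in WT and cKO Treg by the interaction test (limma with Benjamini-Hochberg adjustment). Tcf7 differed by -1.30 ± 0.18 (log2, SE; limma adjusted p = 0.0122), called in all 12 fits with a library left out, with adjusted p from 0.00409 to 0.445 over 19 alternatives. Pou2af1 differed by -0.92 ± 0.17 (limma adjusted p = 0.0295), called in 3 of the 12, with adjusted p from 0.0155 to 0.449. S1pr2 differed by -0.72 ± 0.13 (limma adjusted p = 0.023), called in 6 of the 12, with adjusted p from 0.0251 to 0.443.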

How the results depend on the processing

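The direction of each member was the same under every alternative for both genotype comparisons, stimulation in WT and the interaction, and for stimulation in cKO it was the same for Cxcr5 but not for Bcl6 and Sh2d1a. Scaling sets where 0 lies. With TPM as deposited the median gene moved to 0.21 ex vivo, -0.30 after stimulation, 0.18 for stimulation in WT, -0.31 in cKO and -0.52 for the interaction, and with TPM rescaled without Gm10800 to 0.14, 0.15, 0.55, 0.62 and -0.02. Of the 3 stimulated cKO libraries, 1 was shallow and rich in Gm10800. Why the alternatives differ was not tested.

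The numbers called were 704 ex vivo, 923 after stimulation, 4262 for stimulation in WT, 5835 in cKO and 147 for the interaction. With a filter of 1 TPM, which tests 33873 genes, the first 3 became 57, 52 and 1731 and the interaction 0 (limma, 2468 at an unadjusted p under 0.05), and with no filter 44, 52, 1677 and 0 (limma, 2506). With TPM as deposited they became 273 (260 higher), 306 (69 higher), 1943 (1175 higher) and 67 (6 higher). For stimulation in cKO 2305 of the 5835 were higher, against 734 of 5934 with the 1 TPM filter and 558 of 4674 with TPM as deposited. With TPM rescaled without Gm10800 those after stimulation became 519, for stimulation in WT 8006 (7187 higher) and in cKO 10938 (9130 higher). Between libraries of the same replicate number, deviations from the group means had correlations from -0.21 to 0.26. Such values cannot show whether these libraries shared animals, since they also hold the effects of each library. With the number as a replicate block the interaction count was 65. Leaving out 1 library gave 324 to 740 ex vivo, 398 to 1057 after stimulation, 3256 to 4387 and 4098 to 5992 for stimulation in WT and cKO, and 50 to 203 for the interaction.

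After stimulation the genotype difference with the 1 TPM filter, no filter and TPM as deposited was -1.66, -1.67 and -1.66 for Bcl6, -0.79, -0.79 and -0.79 for Cxcr5, and -0.64, -0.65 and -0.63 for Sh2d1a. The interaction was -1.94, -1.92 and -2.15 for Bcl6, -1.07, -1.06 and -1.30 for Cxcr5 (-1.01 rescaled without Gm10800), and -0.86, -0.85 and -1.07 for Sh2d1a. Ex vivo Cxcr5 differed by 0.51 in TPM as deposited. For stimulation in WT, Sh2d1a lost its call with the 1 TPM filter (0.67, limma adjusted p = 0.209) and with no filter (0.67, limma adjusted p = 0.225). For stimulation in cKO, Sh2d1a turned to -0.19 and -0.18 there, was called at 0.61 rescaled without Gm10800, and ranged from 0.16 to 0.59 with a library left out. Bcl6 turned to 0.057 rescaled without Gm10800, as did, in WT, Maf (0.0084), Batf (0.028), Tcf7 (0.036), Lef1 (0.034) and Runx3 (0.0030) and, in cKO, Mta3 (0.040). With the 1 TPM filter and with no filter, Slamf1 (-0.17 and -0.17) and Tnfrsf4 (-0.039 and -0.033) turned in cKO. Of 144 calls of genes in the lists, of Foxp3 and of Ikzf1, 117 to 135 held with a library left out, 65 with the 1 TPM filter, 100 rescaled without Gm10800, 89 with TPM as deposited and 121 with the replicate block.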
